A study of Mus musculus with 2 samples.

Results

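The 8 transcription factors that mark segments of the nephron, Hnf4a, Pax2, Pax8, Tfap2b, Foxi1, Gata3, Esrrb and Esrrg, were followed in single nuclei of mouse kidney. They were chosen by symbol and make up 8 of the 32285 genes in the count matrices. The study compared kidneys after a sham operation with remnant kidneys after 5/6 nephrectomy, an operation that removes or ties off most kidney tissue. In the nephrectomy group, male T1+/+ mice aged 11 weeks lost the right kidney, and a week later a suture was tied round both poles of the left one. Sham mice, also aged 11 weeks at surgery, had both flanks opened and closed again with the kidneys left in place. Frozen kidney was taken 4 weeks after surgery and its nuclei were captured with the 10x Genomics Chromium system, which counts RNA molecules by unique molecular identifiers (UMIs). The T1+/+ genotype is stated for the operated mice, and the number of mice behind a library, or which piece of the remnant was used, is not given in the sources used here.

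The tubule is laid out in segments that reabsorb and secrete different solutes: the proximal tubule, the loop of Henle with its thick ascending limb, the distal convoluted tubule, the connecting tubule and the collecting duct with its principal and intercalated cells. Each segment keeps its own set of transcription factors in the adult. HNF4A is a nuclear receptor needed for the mature proximal tubule, PAX2 and PAX8 are paired-domain factors that are needed to form the nephron and stay on in adult tubules, TFAP2B acts in the distal convoluted tubule, GATA3 in the collecting duct lineage and FOXI1 in intercalated cells, and the oestrogen-related receptors ESRRB and ESRRG regulate genes of oxidative metabolism and ion transport.

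There was 1 library in each group, so no difference between sham and nephrectomy has a replicate check and none was tested. Every interval below is a 95% interval that covers counting error only. The sham library held 21365116 UMIs in 3084 barcodes and the nephrectomy library 28284727 UMIs in 3299 barcodes, with medians of 5140 and 6844 UMIs a barcode, and 2836 and 3033 nuclei were used. The libraries shared 2 barcode sequences. Nuclei were grouped without the 8 members among the clustering genes and named from marker genes of each cell type; a name such as thick ascending limb means nuclei like that type by these markers. Levels are UMIs of a gene per 1000000 UMIs of the class in that library (CPM). In every class compared, both libraries contributed at least 20 nuclei. A difference is called past the threshold when the nephrectomy CPM is at least 1.5-fold above or below the sham CPM and the gene has at least 20 UMIs over both libraries.

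**Figure D1:**
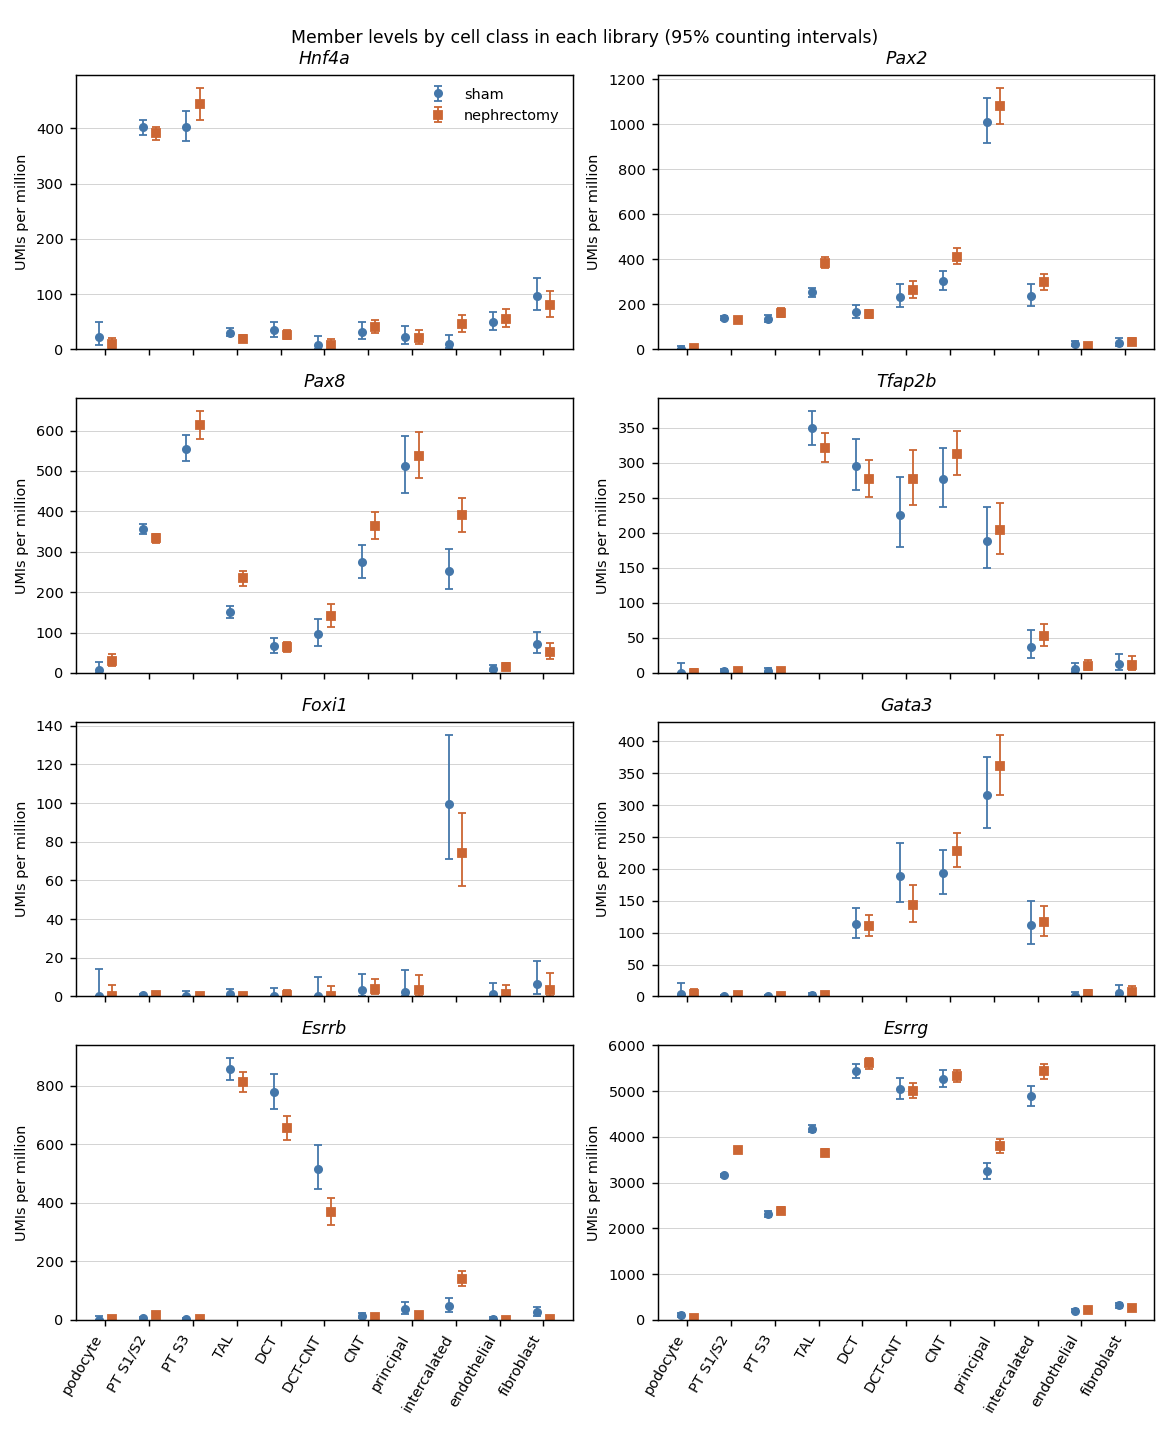
Level of each member, in CPM, in 11 named classes along the nephron and in the endothelium and stroma, with sham as circles, nephrectomy as squares and bars for 95% counting intervals. Foxi1 stands out in 1 class at 99.4 and 74.3 CPM, whereas Esrrg is at 2319 CPM or more in every tubule class.

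Of 104 combinations of a member with a class, 72 had enough UMIs, and 13 of these (18.1%) were past 1.5-fold, 9 higher and 4 lower in nephrectomy. Among all genes with at least 20 UMIs, the share past the same threshold ran from 21.8% to 34.7% by class. The members' count moved with the processing, to 20 of 68 with at least 500 genes a barcode, 23 of 75 at Leiden resolution 2, 24 of 83 with scaled genes and 7 of 46 after subtracting free RNA, so nothing is read from its place against the background. In 10 of the 13 the counting interval left out a ratio of 1. In the sums over whole libraries 20.1% of genes were past 1.5-fold and 0 of the 8 members were, with ratios from 0.908 for Hnf4a to 1.36 for Gata3. Those sums mix the level in a nucleus with the number of nuclei of each class. The order of the classes was much alike in the libraries: over the 13 classes and unnamed clusters compared, log2 levels in sham and nephrectomy correlated with r from 0.922 for Hnf4a to 0.992 for Esrrg, given as a description over classes that share their libraries.

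Hnf4a lies at chr2:163506808-163572910 on the plus strand of GRCm38 (identifier ENSMUSG00000017950). Its level in S1/S2 proximal tubule nuclei was 402 CPM in sham (388 to 415, 3448 UMIs) and 391 CPM in nephrectomy (379 to 402, 4354 UMIs), a ratio of 0.973 (0.930 to 1.02). In S3 nuclei, the straight end of the proximal tubule, it was 403 CPM in sham and 443 CPM in nephrectomy, a ratio of 1.10 (1.00 to 1.21). The S1/S2 and S3 intervals overlapped in sham and not in nephrectomy, where S3 was the higher. S1/S2 nuclei held 70.1% of the gene's UMIs in sham and 74.3% in nephrectomy, and a UMI of it was seen in 90.7% and 90.4% of them, against 11.9% and 14.9% of blood endothelial nuclei, at median depths of 9570 and 10565 UMIs in S1/S2 and 2519 and 3054 in endothelium. After thinning every nucleus to 1000 UMIs the S1/S2 shares were 32.4% and 31.4%.

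The S1/S2 class was made of different clusters in the libraries. Cluster 4 had 379 sham and 11 nephrectomy nuclei, cluster 1 had 121 and 565, and cluster 2 had 288 and 364. Hnf4a was 335 CPM in sham and 341 CPM in nephrectomy within cluster 2, and 453 and 419 CPM within cluster 1. The level in S1/S2 as a whole is therefore also that of its clusters, none of which differed by as much as 1.5-fold.

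In most classes outside the proximal tubule, Hnf4a stood close to the level that free RNA would give. That level was estimated from the markers of other cell types in a class and the profile of the whole library. Outside the proximal tubule those were proximal tubule markers alone. Hnf4a had a pattern much like that of 1 of them, Lrp2, so its closeness partly follows from how the level was estimated. In endothelial nuclei 49.2 CPM was measured in sham against an estimate of 52.9 CPM, and 55.2 against 42.2 CPM in nephrectomy. In thick ascending limb nuclei the values were 30.5 against 31.2 CPM and 19.8 against 23.7 CPM, and in fibroblasts 97.1 against 115 CPM and 79.9 against 72.6 CPM. Hnf4a in the thick ascending limb was thus past the threshold on the low side, at a ratio of 0.651 (0.451 to 0.934), from 73 and 56 UMIs at the estimated background. In intercalated nuclei the ratio was 4.55 (1.64 to 17.5), from 4 sham and 39 nephrectomy UMIs, at 9.94 and 45.3 CPM, where the estimates were 24.5 and 42.0 CPM. One nucleus held 11 of the 39 UMIs (28.2%), and 4 alternative filters or clusterings gave 1.20 to 1.41. Proximal tubule markers summed to 830 CPM in these sham and 1651 CPM in these nephrectomy nuclei, and 24 nephrectomy nuclei with an Hnf4a UMI held 2764 CPM of them against 1152 CPM in the others. Their part in the Hnf4a difference was not tested.

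**Figure D2:**
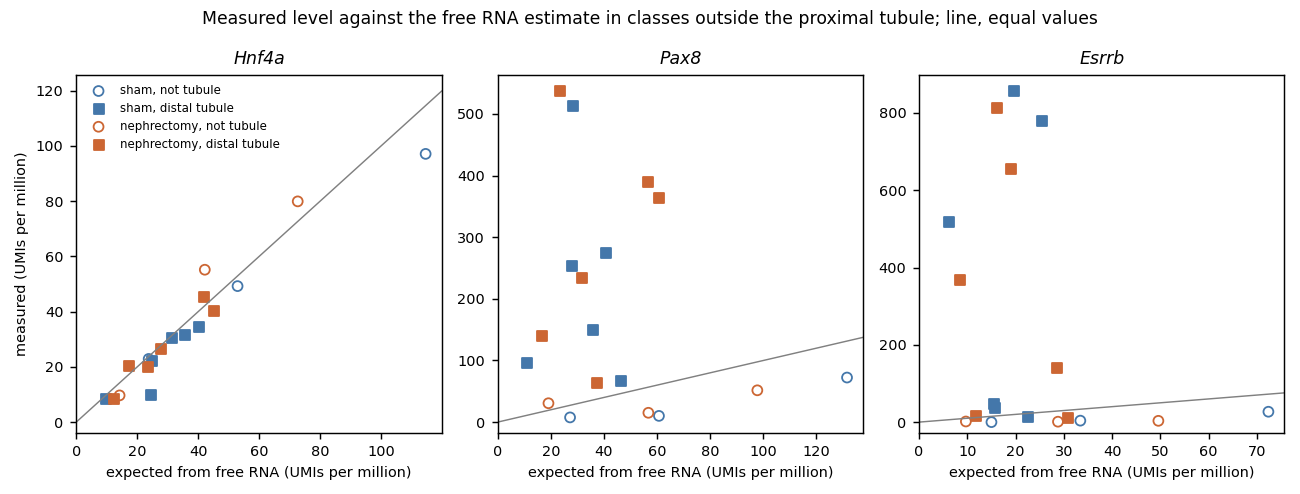
Measured level of Hnf4a, Pax8 and Esrrb against the level expected from free RNA, both as CPM, in the classes outside the proximal tubule, with open circles for podocytes, endothelium and fibroblasts, filled squares for the distal tubule and a grey line of equal values. Hnf4a mostly follows the line, as in endothelium at 49.2 against 52.9 CPM in sham. Pax8 and Esrrb rise far above it in several distal classes and lie mostly below it in the open circles. The estimate rests on proximal tubule markers, including Lrp2, whose pattern Hnf4a resembles, so this contrast is partly built into it.

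Hnf4aos, an antisense gene on the opposite strand at chr2:163493807-163541720, overlaps Hnf4a. It was at 742 CPM in sham and 1125 CPM in nephrectomy in S3 nuclei, a ratio of 1.52 (1.42 to 1.62), and at 603 and 735 CPM in S1/S2 nuclei, a ratio of 1.22 (1.18 to 1.26). Its S3 difference was past the 1.5-fold threshold and that of Hnf4a was not. Where Hnf4a was past the threshold, in thick ascending limb and intercalated nuclei, Hnf4aos was past it in the same direction. It had 48 sham and 22 nephrectomy UMIs in the thick ascending limb, a ratio of 0.389 (0.223 to 0.657). In intercalated nuclei it had 1 and 45 UMIs, at 2.49 and 52.2 CPM. Whether the counting used strand is not given in the sources used here, so reads of the pair may be shared.

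Promoters are shown, from bases -200 to -51 before RefSeq start sites on GRCm38.p6, 5′ to 3′ on the gene's strand: first Foxi1, whose level in 1 class stood far above all others, then the pair Pax2 and Pax8, which were both higher in thick ascending limb nuclei after nephrectomy. Capitals mark matches to 5 motifs searched on both strands: GTAAACA for forkhead factors, AGATAA for GATA factors, GCCNNNGGC for AP-2, TCAAGGTCA for oestrogen-related receptors and CAAAGTCCA for HNF4. The Foxi1 window is chr11:34208140-34208289 (minus), the Pax2 window at chr19:44755552-44755701 (plus) precedes the second of its start sites, and the Pax8 window is chr2:24475650-24475799 (minus).
Foxi1: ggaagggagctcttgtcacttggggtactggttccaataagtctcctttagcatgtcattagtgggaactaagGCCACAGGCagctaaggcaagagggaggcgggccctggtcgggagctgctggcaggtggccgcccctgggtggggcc
Pax2: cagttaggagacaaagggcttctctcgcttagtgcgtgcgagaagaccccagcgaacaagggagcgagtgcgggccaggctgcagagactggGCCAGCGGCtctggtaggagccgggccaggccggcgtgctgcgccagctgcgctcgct
Pax8: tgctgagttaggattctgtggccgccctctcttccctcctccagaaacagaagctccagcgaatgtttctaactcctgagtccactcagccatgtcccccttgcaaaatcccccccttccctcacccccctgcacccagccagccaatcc
The Foxi1 window had 1 AP-2 match at -127 and the Pax2 window 1 AP-2 match at -108. The Pax8 window had none, and no matches overlapped. Pax2 has 3 start sites, and the windows of the others, not shown, held no match to these motifs. Of 32851 promoters of this length, 8.55% held the AP-2 letters, 6.15% the GATA letters, 1.91% the forkhead letters, 0.228% the HNF4 letters and 0.213% the oestrogen-related receptor letters. A match is a string of letters and not a shown binding site.

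Pax2 (chr19:44756045-44837871, plus strand, ENSMUSG00000004231) had its highest named class in principal nuclei of the collecting duct, at 1012 CPM in sham (916 to 1114, 412 UMIs) and 1079 CPM in nephrectomy (1000 to 1162, 693 UMIs). The ratio there was 1.07 (0.943 to 1.21). Next came the connecting tubule, at 304 and 413 CPM, a ratio of 1.36 (1.15 to 1.61), and the thick ascending limb, at 253 and 385 CPM. Intercalated nuclei had 239 and 298 CPM, the transition between distal convoluted and connecting tubule 234 and 265 CPM, the distal convoluted tubule 168 and 157 CPM, S1/S2 nuclei 140 and 133 CPM and S3 nuclei 136 and 163 CPM. In sham the connecting tubule, thick ascending limb, intercalated and transitional classes overlapped in neighbouring pairs. Fibroblasts had 31.0 and 31.6 CPM and endothelial nuclei 22.7 and 14.1 CPM, and podocyte nuclei held 0 UMIs in sham, which allows up to 11.4 CPM (3 counts of the class total), and 3 in nephrectomy.

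Pax8 (chr2:24420560-24475599, minus strand, ENSMUSG00000026976) was highest in a different named class, the S3 proximal tubule, at 556 CPM in sham (525 to 588, 1197 UMIs) and 613 CPM in nephrectomy (579 to 648, 1211 UMIs). Its ratio there was 1.10 (1.02 to 1.20). Principal nuclei came next, at 513 and 537 CPM, and their intervals overlapped those of S3 in both libraries. S1/S2 nuclei had 356 and 333 CPM, the connecting tubule 274 and 363 CPM, intercalated nuclei 254 and 390 CPM and the thick ascending limb 150 and 234 CPM. The low end of the tubule was the distal convoluted tubule, at 66.6 and 64.2 CPM. Endothelial nuclei had 10.1 and 15.1 CPM, below the free RNA estimates of 60.7 and 56.7 CPM. Esrrb and Esrrg were likewise measured there below their estimates, at 3.79 and 1.08 CPM against 33.4 and 28.8 CPM and at 205 and 224 CPM against 628 and 624 CPM. Gm13415, on the opposite strand to Pax8, was lower in S1/S2 nuclei after nephrectomy, at 24.2 and 13.9 CPM, a ratio of 0.574 (0.463 to 0.710).

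Both PAX genes were higher in thick ascending limb nuclei after nephrectomy. Pax2 was 253 CPM in sham (234 to 274, 607 UMIs in 391 nuclei) and 385 CPM in nephrectomy (363 to 409, 1088 UMIs in 367 nuclei), a ratio of 1.52 (1.38 to 1.68). Pax8 was 150 CPM (135 to 167, 360 UMIs) and 234 CPM (216 to 252, 661 UMIs), a ratio of 1.56 (1.37 to 1.78). The share of nuclei with a UMI of Pax2 was 63.2% in sham and 74.7% in nephrectomy, and 22.7% and 30.3% after thinning; for Pax8 it was 48.6% and 61.9%, and 13.2% and 18.3% after thinning. Nuclei with UMIs of both genes were 136 of 391 in sham and 194 of 367 in nephrectomy. With Hnf4a on the low side, 3 of the 6 members with enough UMIs in this class were past 1.5-fold, against 21.8% of all genes.

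The class held 2 clusters, and the PAX difference was present in each and larger in cluster 7. In cluster 3, Pax2 was 196 CPM in sham and 267 CPM in nephrectomy, and Pax8 was 149 and 188 CPM. In cluster 7, Pax2 was 300 and 524 CPM and Pax8 151 and 288 CPM. In cluster 3 the sham and nephrectomy intervals of Pax8 overlapped, and in cluster 7 they did not. Esrrb and Tfap2b, the other regulators of this segment, moved less: in cluster 3 Esrrb was 704 and 637 CPM and Tfap2b 354 and 352 CPM, and in cluster 7 they were at 981 and 1020 CPM and at 345 and 286 CPM.

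**Figure D3:**
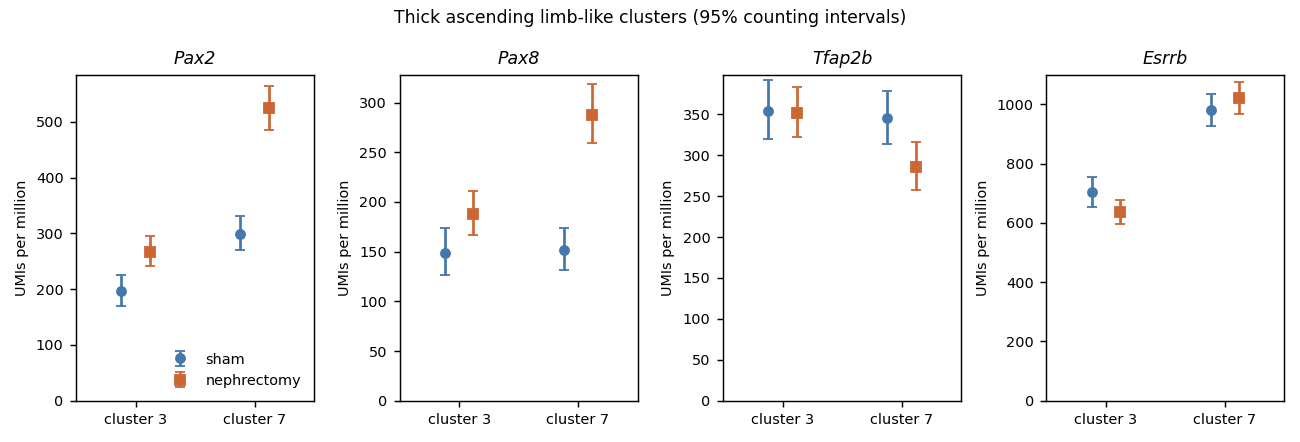
Levels of Pax2, Pax8, Tfap2b and Esrrb, in CPM, in both thick ascending limb clusters, with sham as circles, nephrectomy as squares and bars for 95% counting intervals. In cluster 7 the nephrectomy values of Pax2 and Pax8, 524 and 288 CPM, lie above the sham values of 300 and 151 CPM with no overlap of the intervals.

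Some other markers moved with the PAX genes in this class. The 6 tubular injury markers summed to 23.8 CPM in sham and 105 CPM in nephrectomy, with 4 and 5 of them seen. Dcdc2a, a cilium-linked doublecortin-domain gene, had 27 and 165 UMIs, Cp 21 and 88 and Lcn2 6 and 38. Vcam1 had 3 in each library, Havcr1 0 and 3, and Krt20 was at 0 in both. The 6 macula densa markers summed to 90.1 and 223 CPM, with 5 and 6 of them seen. Most of these UMIs were of Robo2, with 163 and 468, a gene also leading in the podocyte cluster and a fibroblast cluster. Nos1, the neuronal nitric oxide synthase of macula densa cells, had 23 and 67 UMIs, Pappa2 26 and 81 and Tmem158 1 and 9. Avpr1a had 3 and 4 and Ptgs2 0 and 1. In the nuclei without a UMI of any of these 12 markers, 324 in sham and 269 in nephrectomy, Pax2 was 276 and 399 CPM, a ratio of 1.45, and Pax8 was 159 and 225 CPM, a ratio of 1.42. Both ratios were below 1.5-fold. Having 0 UMIs of such scarce markers depends on depth and does not show that a nucleus lacks those states. The part of these markers in the PAX differences was not tested.

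Intercalated nuclei also had more Pax8 after nephrectomy: 254 CPM in sham (207 to 308, 102 UMIs) and 390 CPM in nephrectomy (349 to 434, 336 UMIs), a ratio of 1.54 (1.23 to 1.94). A UMI was seen in 67.2% of 64 and 85.4% of 89 nuclei, at median depths of 5537 and 8280 UMIs, and after thinning in 19.7% and 31.8%. Pax2 had a ratio of 1.25 (0.985 to 1.60). The free RNA share of the class was estimated at 9.35% in sham and 17.6% in nephrectomy, and the estimates for Pax8, 28.1 and 56.4 CPM, were well below the levels measured. In podocytes Pax8 had 2 sham and 19 nephrectomy UMIs (7.62 and 30.6 CPM), a ratio of 4.02 (0.969 to 35.6), which turned to 0.638 without doublet removal. In this class 30.6% of genes were past 1.5-fold, and so were Pax8 and Esrrg, the 2 members tested, though the Esrrg value rests on 1 sham nucleus, as given with that gene.

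Among the classes compared, the highest Pax8 levels in both libraries and the highest Pax2 level in nephrectomy were in a small cluster that the markers did not name. Its 25 sham and 20 nephrectomy nuclei led with Fst, Cdh13, Sorcs3 and Slc14a2, the last a urea transporter, and scored about equally for urothelium and thin limb. Pax2 was 753 CPM in sham and 1743 CPM in nephrectomy, a ratio of 2.31 (1.83 to 2.95), and Pax8 was 956 and 1612 CPM, a ratio of 1.69 (1.35 to 2.11). One nucleus held 79 of the 227 nephrectomy UMIs of Pax2 (34.8%), and with equal weight for each nucleus the Pax2 ratio was 1.81. Of the 4 members tested in this cluster 2 were past 1.5-fold, where 34.7% of genes were.

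Nuclei with tubular injury markers were nearly all from nephrectomy, 25 against 3 in sham, so the libraries were not compared in them. Within the nephrectomy library, Hnf4a was 182 CPM in these nuclei (139 to 236, 58 UMIs) against 391 CPM in S1/S2, a ratio of 0.467 (0.354 to 0.605). Pax8 went the other way, at 997 CPM (891 to 1113, 317 UMIs) against 333 CPM, a ratio of 2.99 (2.66 to 3.36), and so did Pax2, at 340 against 133 CPM, a ratio of 2.56 (2.09 to 3.12). Esrrg was 4471 against 3713 CPM, a ratio of 1.20. Scarcer members were also higher in these nuclei. Tfap2b was 28.3 CPM, from 9 UMIs, against 2.96 CPM, a ratio of 9.57 (4.03 to 20.4). Esrrb was 37.8 CPM, from 12 UMIs, against 17.9 CPM, a ratio of 2.104 (1.07 to 3.76). Gata3 had 1 UMI in these nuclei and Foxi1 had 0. The free RNA share was estimated at 21.2% in these nuclei and 11.98% in S1/S2. The part of free RNA in these ratios was not tested. The 21 parietal epithelial nuclei of that library, from the outer wall of the glomerular capsule, had 972 CPM of Pax8, 631 CPM of Pax2 and 32.8 CPM of Hnf4a. Parietal markers were the next best match of the injury-marker cluster, and their part in its PAX levels was not tested.

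Tfap2b (chr1:19208914-19238576, plus strand, ENSMUSG00000025927) was spread over the distal nephron. The thick ascending limb had 349 CPM in sham (326 to 374, 837 UMIs) and 321 CPM in nephrectomy (301 to 343, 908 UMIs), a ratio of 0.920 (0.837 to 1.01). The distal convoluted tubule had 296 and 277 CPM, the connecting tubule 277 and 313 CPM, the transition between them 225 and 277 CPM and principal nuclei 189 and 204 CPM. Each of these classes overlapped its neighbour in the order, in both libraries. Intercalated nuclei were lower, at 37.3 and 52.2 CPM, S1/S2 nuclei had 3.49 and 2.96 CPM, below the free RNA estimate of 12.8 and 10.8 CPM, and podocytes held 0 UMIs. Its ratios in the distal classes ran from 0.920 to 1.40, none past 1.5-fold.

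Esrrb (chr12:86361117-86521628, plus strand, ENSMUSG00000021255) stopped abruptly along the same segments. It was 857 CPM in sham and 813 CPM in nephrectomy in the thick ascending limb (2053 and 2297 UMIs), a ratio of 0.949 (0.894 to 1.01). In the distal convoluted tubule it was 778 and 655 CPM, a ratio of 0.842 (0.763 to 0.929), and in the transition to the connecting tubule 517 and 369 CPM, a ratio of 0.713 (0.589 to 0.865). In the connecting tubule it was 12.7 and 10.1 CPM, from 8 and 13 UMIs. None of these classes reached 1.5-fold. The thick ascending limb interval covered a ratio of 1, and the value there was 1.09 after thinning and 1.03 without doublet removal. The distal convoluted tubule value was 1.04 with at most 5% mitochondrial UMIs allowed and 0.986 without doublet removal.

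Gata3 (chr2:9857078-9890034, minus strand, ENSMUSG00000015619) had the opposite gradient. The thick ascending limb held 7 UMIs of it in each library (2.92 and 2.48 CPM), below the free RNA estimates of 3.53 and 3.99 CPM. It was 114 and 110 CPM in the distal convoluted tubule, 190 and 143 CPM in the transition, 193 and 228 CPM in the connecting tubule and 317 and 361 CPM in principal nuclei (129 and 232 UMIs). The principal ratio was 1.14 (0.916 to 1.43) and that of the transition 0.755 (0.551 to 1.04). Intercalated nuclei had 112 and 117 CPM. A gene on the same strand within it, 9230102O04Rik, had 14 and 18 UMIs in principal nuclei.

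Nuclei with UMIs of both Gata3 and Esrrb were most frequent in the distal convoluted tubule and the transition. Among distal convoluted tubule nuclei, 48 of 104 in sham and 67 of 170 in nephrectomy had both. Gata3 alone or with Esrrb was in 51 and 76 of them, and Esrrb in 94 and 148. In the transition 29 of 40 and 30 of 57 had both, with Gata3 in 32 and 35 and Esrrb in 36 and 47. Esrrb was in most nuclei of these classes, so no link between the genes is read from the joint counts. Intercalated nuclei came next, with both in 6 of 64 and 22 of 89. In the connecting tubule 5 of 91 and 7 of 122 nuclei had both. In principal nuclei it was 4 of 69 and 3 of 76, and in the thick ascending limb 2 of 391 and 5 of 367. None of the members tested in the distal convoluted tubule (0 of 7, background 24.6%), the transition (0 of 6, 29.5%) or the connecting tubule (0 of 7, 28.3%) was past 1.5-fold.

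**Figure D4:**
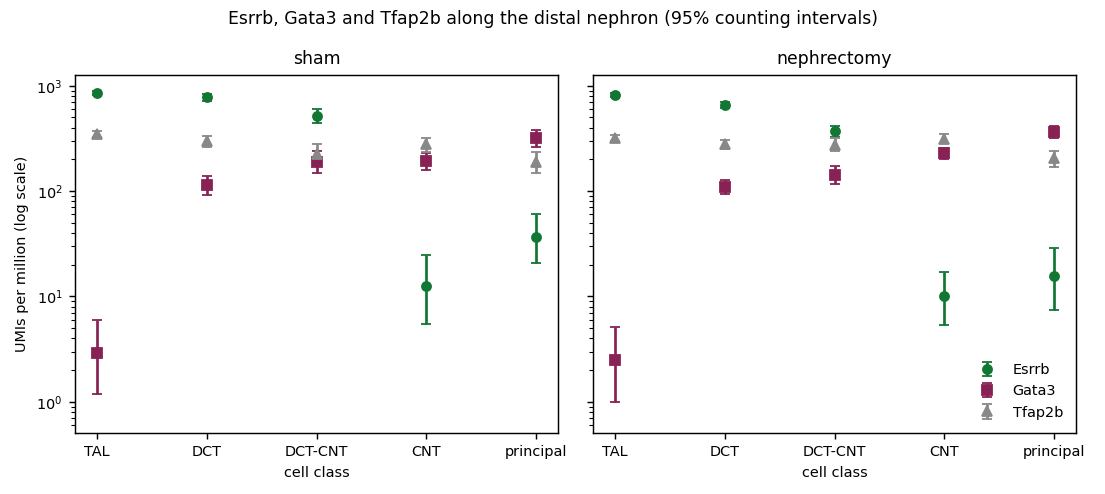
Levels of Esrrb, Gata3 and Tfap2b, in CPM on a log scale, from the thick ascending limb (TAL) through the distal convoluted tubule (DCT), the transition (DCT-CNT) and the connecting tubule (CNT) to principal nuclei, with 95% counting intervals. Esrrb drops from 517 to 12.7 CPM between the transition and the connecting tubule in sham, Gata3 climbs from 2.92 CPM at the start to 317 CPM at the end, and Tfap2b stays between 189 and 349 CPM.

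Esrrb was past the threshold in 3 classes where its level was low. In S1/S2 proximal tubule nuclei it was 8.27 CPM in sham (71 UMIs) and 17.9 CPM in nephrectomy (200 UMIs), a ratio of 2.17 (1.65 to 2.89), the 1 member of 7 past 1.5-fold there, against 23.1% of genes. The higher value was also seen within cluster 1, at 10.1 and 17.0 CPM, and cluster 2, at 6.97 and 19.8 CPM. A UMI was found in 7.11% and 13.8% of nuclei, and after thinning in 1.15% and 1.72%. Both levels were below the free RNA estimates of 25.7 and 19.5 CPM, which fell in nephrectomy while the measured level rose. In the proximal tubule that estimate rests on thick ascending limb and endothelial markers, and Esrrb itself led in the thick ascending limb. Nephrectomy nuclei with an Esrrb UMI held 498 CPM of thick ascending limb markers against 564 CPM in those without. The part of free RNA in the Esrrb difference was not tested.

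In intercalated nuclei Esrrb was 47.2 CPM in sham (19 UMIs) and 139 CPM in nephrectomy (120 UMIs), a ratio of 2.95 (1.81 to 5.07). There, thick ascending limb markers moved with it: the 38 nephrectomy nuclei with an Esrrb UMI held 2197 CPM of them against 444 CPM in the other 51, and 1339 against 206 CPM of distal convoluted tubule markers. In sham the thick ascending limb markers were at 789 and 735 CPM and the distal convoluted tubule markers at 1235 and 706 CPM. Their part in the Esrrb difference was not tested. With Hnf4a and Pax8, 3 of the 8 members were past 1.5-fold in intercalated nuclei, against 28.5% of genes. In principal nuclei Esrrb was 36.8 and 15.6 CPM, from 15 and 10 UMIs, a ratio of 0.423 (0.170 to 1.01), the 1 of 7 members past 1.5-fold where 27.2% of genes were. Those UMIs lay in 4 nuclei of each library, 7 of 15 and 7 of 10 of them in 1 nucleus, and the ratio turned to 1.06 without doublet removal and 1.40 at Leiden resolution 2.

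Esrrg (chr1:187608791-188214885, plus strand, ENSMUSG00000026610), a gene of 606 kb, was detected in nearly every tubule nucleus. It was 5434 CPM in sham (5281 to 5592, 4735 UMIs) and 5603 CPM in nephrectomy (5487 to 5720, 8904 UMIs) in the distal convoluted tubule, a ratio of 1.03 (0.995 to 1.07). The connecting tubule had 5272 and 5321 CPM, the transition 5049 and 5008 CPM and intercalated nuclei 4882 and 5428 CPM. The thick ascending limb had 4177 and 3652 CPM, a ratio of 0.874 (0.851 to 0.899). Principal nuclei had 3258 and 3789 CPM, a ratio of 1.16 (1.09 to 1.24), S1/S2 nuclei 3157 and 3713 CPM, a ratio of 1.18 (1.16 to 1.19), and S3 nuclei 2319 and 2389 CPM. In sham the thick ascending limb was above principal and S1/S2 nuclei, and in nephrectomy the S1/S2 and thick ascending limb intervals overlapped. In podocytes Esrrg had 26 UMIs in 45 sham nuclei and 31 in 79 nephrectomy nuclei, a ratio of CPM of 0.504 (0.290 to 0.884). One sham nucleus held 19 of the 26 UMIs (73.1%), and a UMI was seen in 7 of the 45 and 25 of the 79 nuclei. Without the nucleus with the most Esrrg UMIs in each library the levels were 27.3 and 44.3 CPM, a ratio of 1.62 (0.690 to 4.42), and after thinning it was 2.28, so no direction is read for podocytes.

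Gm36388, an antisense gene within Esrrg, was lower in nephrectomy in 7 of 8 tubule classes; the exception was intercalated nuclei, at 102 and 107 CPM, a ratio of 1.05 (0.718 to 1.55). It was 266 and 99.9 CPM in the connecting tubule, a ratio of 0.376 (0.296 to 0.476), 85.8 and 42.8 CPM in S1/S2 nuclei, a ratio of 0.498 (0.443 to 0.560), and 137 and 84.6 CPM in the thick ascending limb, a ratio of 0.618 (0.521 to 0.732). The ratio was 0.485 in the transition, 0.555 in principal nuclei, 0.650 in the distal convoluted tubule and 0.658 in S3 nuclei. Esrrg itself was between 0.874 and 1.18 in these 8 classes. In them, 11.3% (S1/S2) to 15.8% (principal) of all genes were past 1.5-fold on the low side. Gm36388 also had fewer UMIs outside these classes. It had 45 and 7 in the large unnamed cluster, a ratio of 0.191 (0.0725 to 0.426). Fibroblasts had 7 and 1, endothelial nuclei 6 and 1 and podocytes 2 and 0, while the small unnamed cluster had 4 in each library.

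Foxi1 (chr11:34204338-34208089, minus strand, ENSMUSG00000047861), a forkhead factor, had its level far above that of any other class in 1 class. Intercalated nuclei held 65.6% of its UMIs in sham and 71.1% in nephrectomy, at 99.4 CPM (71.0 to 135, 40 UMIs) and 74.3 CPM (57.2 to 94.9, 64 UMIs). Their ratio was 0.747 (0.496 to 1.14), so no difference was detectable at this depth. A UMI was seen in 43.8% and 40.4% of these nuclei, against 1 of 269 and 1 of 275 endothelial nuclei. No other class compared exceeded 6.20 CPM in either library. The class had 4 clusters, in which sham ran from 36.0 to 149 CPM and nephrectomy from 50.8 to 110 CPM, on 3 to 23 UMIs each; nephrectomy was the lower in 3 of them.

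**Figure D5:**
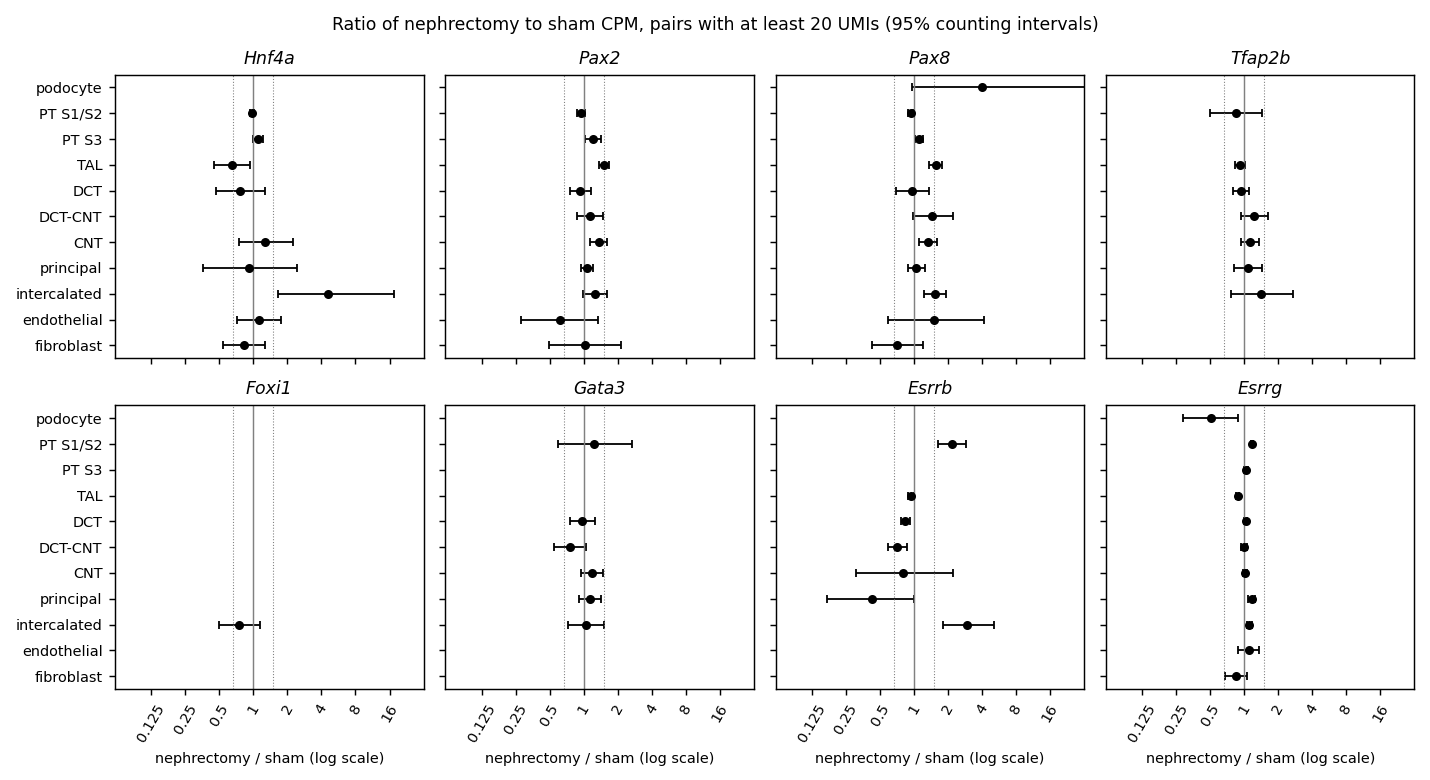
Ratio of nephrectomy to sham CPM for each member in 11 named classes, on a log scale, for combinations with at least 20 UMIs, with bars for 95% counting intervals and dotted lines at 1.5-fold either way. Pax2 and Pax8 lie past the upper line in the thick ascending limb at 1.52 and 1.56, and Hnf4a in intercalated nuclei has the highest ratio, 4.55, and a wide interval.

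In the other classes members were rarely past the threshold. In S3 nuclei 0 of 4 were, where 23.5% of genes were, and in fibroblasts 0 of 4, where 29.0% were. In endothelial nuclei Pax2 was the 1 of 4, on the low side at a ratio of 0.619 (0.279 to 1.34) from 18 and 13 UMIs, where 21.8% of genes were; 3 alternatives turned this ratio, to 1.07, 1.45 and 1.46. A large cluster of 506 sham and 401 nephrectomy nuclei stayed unnamed, with median depths of 1103 and 1144 UMIs and a free RNA estimate of 100%. That estimate rests on proximal tubule markers, and the best marker score of the cluster was for S2 proximal tubule. It therefore cannot separate free RNA from the cluster's own. In this cluster 0 of 6 members were past 1.5-fold, where 27.2% of genes were.

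Other members of the same gene families were mostly scarce. Of 15 paralogues 5 had enough UMIs in the class where they were highest, with 2 higher and 0 lower. Of all genes, 21.8% to 30.6% were past 1.5-fold by named class, so no shift is read from this count. Tfap2a was 101 CPM in sham and 191 CPM in nephrectomy in principal nuclei, a ratio of 1.90 (1.33 to 2.78), and Gata6 was 26.9 and 61.6 CPM in fibroblasts, a ratio of 2.29 (1.19 to 4.70). Hnf4g in S3 nuclei had a ratio of 1.18 (1.08 to 1.28), Gata2 in principal nuclei 0.879 (0.639 to 1.21) and Esrra in intercalated nuclei 0.842 (0.625 to 1.14). Pax5, a B cell factor, had 19 UMIs in sham distal convoluted tubule nuclei, all in 1 nucleus. Pax6, Foxi2 and Foxi3 had 0 UMIs.

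Other regulators were taken by list, each in the named class where it was highest in sham. By named class 21.8% to 30.6% of all genes were past 1.5-fold, and no shift is read from the counts below. Among 10 further proximal tubule regulators 9 were tested, 2 were higher and 1 lower, with a median log2 ratio of 0.25. Ppara, a fatty acid sensing nuclear receptor, was 709 and 1429 CPM in S1/S2 nuclei, a ratio of 2.02 (1.96 to 2.08), and Nr1i2, the pregnane X receptor, 15.5 and 37.3 CPM, a ratio of 2.41 (1.98 to 2.95). Both are ratios over the whole S1/S2 class, which was made of different clusters in the libraries. The part of that make-up in them was not tested. The lowest was Nr1h3 in fibroblasts, at 0.652 (0.323 to 1.30). Of 24 loop and distal regulators 22 were tested, with 3 higher and 0 lower and a median of -0.25: Tfap2a, Elf5 at 1.72 (1.03 to 2.99) and Ehf at 1.52 (1.14 to 2.04), all in principal nuclei, while Grhl2 had the lowest ratio, 0.714, and Sall1 0.728. Of 9 podocyte and stromal regulators 8 were tested, with 0 higher and 1 lower and a median of -0.29. Foxd2 was the lower one, at 0.423 (0.208 to 0.862), Tcf21, a stromal and podocyte factor, had 0.700 (0.495 to 0.997), and Foxc2 and Foxc1 had 1.41 and 1.10. The median over all genes was within 0.052 of 0 in every class compared.

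Genes known to depend on each member, or to share its segment, were read in the leading class of a member, with 1 exception. For PAX2 and PAX8 this was the class of Pax2 and for the oestrogen-related receptors that of Esrrb. For Hnf4a it was S3, at 403 CPM in sham against 402 CPM in S1/S2, with overlapping intervals. The exception was TFAP2B, read in the distal convoluted tubule, though Tfap2b led in the thick ascending limb. Of 12 genes linked to HNF4A, all tested in S3 nuclei, where 23.5% of all genes were past 1.5-fold, 1 was higher and 3 were lower, with a median log2 ratio of 0.09: Ttr, which carries thyroid hormone and retinol, had 2.56 (1.95 to 3.38) and Pck1, of gluconeogenesis, 1.48, while Apom had 0.380 (0.196 to 0.698), the phosphate transporter Slc34a1 0.588 (0.544 to 0.635) and the organic anion transporter Slc22a8 0.630. Of 12 genes linked to FOXI1, all tested in intercalated nuclei, none was past 1.5-fold (background 28.5%), with a median of -0.23. They ran from 0.721 for Car2, a carbonic anhydrase, and 0.722 for the ammonia channel gene Rhcg to 1.18 for the proton pump subunit Atp6v0a4 and 1.27 for Slc26a7. Of 10 genes linked to PAX2 and PAX8, 8 were tested in principal nuclei, with 1 higher, 0 lower (background 27.2%) and a median of -0.24; Spp1, which encodes osteopontin, had 1.84 (1.27 to 2.72), the water channel gene Aqp2 1.14, Wnt4 0.679 and Cdh16 0.746.

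Of 11 genes linked to TFAP2B or of the early distal convoluted tubule, all tested there, 0 were higher and 2 lower (background 24.6%), with a median of -0.06: Pvalb, the calcium buffer parvalbumin, at 0.410 (0.290 to 0.576) and Cnnm2, a magnesium homeostasis gene, at 0.566 (0.513 to 0.623), against 1.30 for Egf and 1.18 for Wnk4. Of 8 genes linked to GATA3, 7 were tested in principal nuclei, with 1 higher, 0 lower (background 27.2%) and a median of -0.01; the sodium-calcium exchanger gene Slc8a1 had 2.22 (2.02 to 2.45), Calb1 1.34, Hsd11b2 0.772 and Fxyd4 0.839. Of 15 genes linked to oestrogen-related receptors 14 were tested in the thick ascending limb, with 0 higher, 3 lower (background 21.8%) and a median of -0.08: Perm1 at 0.451 (0.266 to 0.748), cytochrome c (Cycs) at 0.524 (0.443 to 0.620) and the respiratory chain gene Cox4i1 at 0.596 (0.546 to 0.650), with Kcnq1 at 1.37 and Pdk4 at 1.25. Slc34a1, Slc22a8, Slc26a7, Aqp2, Hsd11b2, Fxyd4, Slc8a1, Calb1, Pvalb, Egf and Wnk4 were also used to name classes. Some of them were read outside the segment they mark. Slc34a1 and Slc22a8 are S2 markers read in S3 nuclei, and Slc8a1 and Calb1 connecting tubule markers read in principal nuclei. Egf is a thick ascending limb marker read in the distal convoluted tubule. The part of neighbouring segments in these ratios was not tested.

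Genes with the pattern most like each member were ranked by Pearson correlation of log2(CPM + 1) over 26 points, the 13 classes and clusters in both libraries, among 12179 genes; the points share libraries and depth, and the values only describe likeness. Hnf4a was most like Lrp2, the endocytic receptor megalin (0.970, itself a naming marker), Cyp2j5 (0.968) and Ak4 (0.966), Pax2 most like Cobll1 (0.95), Wwc1 (0.949) and Acer3 (0.936), and Pax8 most like Veph1 (0.935), Gprc5c (0.913) and Stxbp6 (0.909). Tfap2b was closest to Nudt4 (0.952), the potassium channel gene Kcnj1 (0.949) and Prdm16 (0.943), and Gata3 to Slc35g1 (0.926), Tfap2a (0.914) and Gpr39 (0.907). Foxi1 was closest to the proton pump subunit gene Atp6v1g3 (0.900), Hmx2 (0.896) and the naming marker Slc4a9 (0.889), Esrrb to Stk32b (0.890), Mfsd4a (0.868) and Kctd1 (0.863), and Esrrg to Rbm47 (0.939), Tmem116 (0.938) and Sox6 (0.937). Among the members themselves Pax2 and Pax8 were at 0.848.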

How the data were processed

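The deposited files hold whole-number counts of UMIs for 32285 genes per barcode, made by the authors with Cell Ranger on mm10; the submitters' processing notes give version 7.1.0 and the file header 7.0.1. Intron counting and strand are not given in the sources used here. Positions came from GENCODE M21 on GRCm38, the assembly of mm10 (32235 of 32285 identifiers found, all 8 members), and promoters from RefSeq (GRCm38.p6). The members and all gene lists were chosen with earlier results of these data known, and members stayed out of the clustering genes.

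A barcode needed 200 or more genes and no more than 10% mitochondrial UMIs (109 sham and 112 nephrectomy barcodes did not pass). Scrublet's own threshold called 1 doublet, so the top 3% of scores (174 nuclei) and clusters with at least 20% such nuclei (2 clusters, 218 nuclei) were removed. Nuclei were clustered with scanpy 1.11.5 on 2000 unscaled variable genes, 30 components, 15 neighbours and Leiden resolution 1.0. Clusters with close marker scores were split, giving 31, of which 27 were named by at least 3 markers at least 2-fold up and found in at least 5% of nuclei. Leaving genes unscaled, the splitting, the merging of related types and the tie rule were chosen after seeing the data, member values included.

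UMIs were summed per class and scaled to CPM, with exact Poisson intervals for levels, exact conditional binomial intervals for ratios and Clopper-Pearson intervals for shares. Thinning to 1000 UMIs left out 319 sham and 274 nephrectomy nuclei. The free RNA estimate scales the library profile to proximal tubule markers in classes outside the proximal tubule. In proximal tubule classes it uses thick ascending limb and endothelial markers. edgeR 4.0.16 served only for an alternative scaling. Ratio intervals were run on simulated Poisson counts, the model they assume. The simulation left out the clumping of UMIs in single nuclei, so it cannot show how the intervals cover that. The genes named are all members in every class, overlapping genes, paralogues with values and, for each list, the 2 highest and 2 lowest. The 3 genes most like each member are also named. Slc22a8, Cox4i1, the injury and macula densa markers shown and the leading genes of the unnamed cluster were chosen after their values were seen. Classes with under 20 nuclei in either library were not compared. A gene that the naming rule picks is not reported here.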

Additional observations from a re-analysis of the deposited data

How the results depend on the processing

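The design has 1 library a group, so no value could be recomputed without a replicate. No paired analysis was possible because each group has 1 library and the shared number does not tie the mice. Over all alternatives, Pax2 in the thick ascending limb ran from 1.39 to 1.60, Pax8 there from 1.39 to 1.73 and in intercalated nuclei from 1.39 to 1.85, Foxi1 from 0.520 to 0.818 and Hnf4a in S3 nuclei from 1.07 to 1.16. Thinning to 1000 UMIs gave 1.48 for Gata3 in principal nuclei, 1.09 for Esrrb in the thick ascending limb, 1.51 for Esrrb in S1/S2 nuclei, 6.93 for Esrrb in intercalated nuclei and 1.60 for Pax2 in the small unnamed cluster. Without doublet removal Esrrb in the thick ascending limb was 1.03, Esrrg in the distal convoluted tubule 1.12, and Esrrb in principal nuclei turned to 1.06; at Leiden resolution 2 that value was 1.40. Esrrg in the distal convoluted tubule was 1.13 with at most 5% mitochondrial UMIs and 0.992 with scaled genes, an alternative added after seeing the data, under which Esrrb in intercalated nuclei was 1.73. Hnf4a in intercalated nuclei was 1.20 to 1.41 under 4 alternatives. In podocytes Esrrg turned to 2.28 after thinning and to 1.62 without the nucleus with the most UMIs of the member in each library, an alternative also added after seeing the data, and Pax8 turned to 0.638 without doublet removal. Pax2 in endothelium turned to 1.46 without doublet removal, 1.45 with at most 5% mitochondrial UMIs and 1.07 with equal weight per cluster. The 13 combinations past 1.5-fold became 20 with at least 500 genes a barcode, 23 at Leiden resolution 2, 24 with scaled genes, 7 after subtracting free RNA, 29 with no UMI minimum and 6 at a fold of 2. With at least 500 genes a barcode no cluster was named principal, so Pax2 and Gata3 had no value there, and free RNA subtraction gave none for the large unnamed cluster. TMM scaling moved all genes in principal nuclei by 0.10 on the log2 scale and less in other classes. The cause of these changes was not tested. Depth limited Foxi1, with 40 and 64 UMIs in its leading class, and the members at a few UMIs in classes where they are low.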
